A study of Mus musculus with 2 samples.

Results

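The Mir30 family of the mouse comprises 6 microRNA genes, Mir30a, Mir30b, Mir30c-1, Mir30c-2, Mir30d and Mir30e, which lie as pairs at 3 loci. All 6 were among the 1973 counted genes of microRNA-seq libraries from the livers of B6NCrl embryos at embryonic day 11.5, a stage at which blood forms in the growing liver. The members were found by matching Ensembl gene identifiers to the symbols in the GENCODE annotation M21, and the family was chosen on its measured counts per 1000000 assigned counts (CPM) in these libraries. Levels are therefore given as a description, with no test. The libraries formed 1 group of 2 biological replicates from healthy embryos of both sexes, with no treatment, genotype contrast or second stage. Replicate 1 was a pool of 109 embryos, while the labels call replicate 2 pooled without giving a number. RNA shorter than 30 nucleotides was sequenced.

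A microRNA gene is transcribed as a longer precursor, in which a hairpin is cut to a short duplex, and either strand of the duplex (the 5p or the 3p arm) can be loaded into an Argonaute protein. The loaded arm finds messenger RNAs mainly through its seed, bases 2 to 8 from its 5′ end, and lowers their stability and translation. The miR-30 family is known for a shared 5p seed, for targets in epithelial-to-mesenchymal transition and autophagy, and for a role in the development of the bile ducts.

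The mature arms are shown because the genes differ in which arms they share with another gene, and the files list reads that map to several places as a class apart from the genes. Gene counts and these classes sum to the same total in each column, so a read in that class is not also counted at a gene. The rule that put reads into it is not given in the sources used here. Sequences are from RefSeq (build GRCm38.p6), 5′ to 3′, with the seed in capitals. The RefSeq table held 4 of the 6 members, and Mir30b and Mir30d had no entry.
miR-30a-5p (Mir30a): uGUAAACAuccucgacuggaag
miR-30e-5p (Mir30e): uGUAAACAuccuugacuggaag
miR-30c-5p (Mir30c-1 and Mir30c-2): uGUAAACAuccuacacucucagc
miR-30a-3p (Mir30a): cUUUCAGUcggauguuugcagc
miR-30e-3p (Mir30e): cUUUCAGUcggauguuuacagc
miR-30c-1-3p (Mir30c-1): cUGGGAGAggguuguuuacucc
miR-30c-2-3p (Mir30c-2): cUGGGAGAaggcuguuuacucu
The 5p arms of the 4 genes carried the same seed, GUAAACA. The 3p arms fell into 2 seed groups, UUUCAGU for Mir30a and Mir30e and UGGGAGA for both Mir30c genes.

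Positions are counted from 1 at the 5′ end of the first arm named. miR-30a-5p and miR-30e-5p differed by 1 base in 22, C13U, and their 3p arms also by 1 base, G18A. miR-30a-5p and miR-30c-5p shared their first 12 bases and differed at 5 of the 22 positions compared, all of them outside the seed. Mir30c-1 and Mir30c-2 gave an identical 5p arm of 23 bases, and the next 5 bases of the hairpins were identical too, a run of 28. Their 3p arms differed at 3 positions, G9A, U12C and C22U. A full-length read of miR-30c-5p therefore cannot be assigned to 1 of the Mir30c genes by its sequence, whereas both arms of Mir30a and of Mir30e occur at no other gene of the table.

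The hairpins of the chromosome 4 pair show the arms in place (capitals mark the mature arms), with the lone copy-specific arm of Mir30c-1 on the right.
Mir30e: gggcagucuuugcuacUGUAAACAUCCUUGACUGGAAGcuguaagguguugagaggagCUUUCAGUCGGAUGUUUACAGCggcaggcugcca
Mir30c-1: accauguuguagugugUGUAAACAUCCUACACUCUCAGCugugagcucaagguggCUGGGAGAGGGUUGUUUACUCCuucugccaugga

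In the mm10 assembly (GRCm38), with M21 annotation, Mir30e (ENSMUSG00000065409.1) lies at chr4:120772606-120772697 and Mir30c-1 (ENSMUSG00000065490.1) at chr4:120769534-120769622. Both are on the minus strand in introns of Nfyc, which encodes a subunit of the transcription factor NF-Y, with 2983 bases between them. Mir30a (ENSMUSG00000065405.2) lies at chr1:23272269-23272339 on the plus strand and overlaps no other annotated gene. Mir30c-2 (ENSMUSG00000065567.1) follows 19361 bases on, at chr1:23291701-23291784, within an exon of Gm27028, a long noncoding RNA gene. Mir30d (ENSMUSG00000065437.1) lies at chr15:68341208-68341289 on the minus strand, in exons of the noncoding gene models Gm20732 and Gm37296. Mir30b (ENSMUSG00000065476.2) lies 3697 bases from it at chr15:68337415-68337510, in an exon of the processed transcript Gm26621. No read was counted on the opposite strand of any of the 6 genes in either library.

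Replicate 1 held 12750572 reads, of which 3344673 (26.2%) were assigned to a microRNA gene on its own strand, and replicate 2 held 5471247, of which 1584499 (29.0%) were assigned. Reads that fitted several places made up 22.0% and 22.6% of them, and how many of those came from Mir30 hairpins is not known from gene counts. Among the markers of liver cells, the hepatocyte microRNA Mir122 stood at 30679 and 34487 CPM and the erythroid Mir451a at 7495 and 9793 CPM. The endothelial Mir126a had the highest mean level of all counted genes, 68747 CPM. Of the neural list, 7 of 8 genes were counted, 3 of them had no read in either library (Mir124a-1, Mir124a-3 and Mir9-2), and the list summed to 0.0168% and 0.0146% of assigned counts. Of the striated muscle list, 7 of 8 were counted, Mir1a-1, Mir133a-1 and Mir133a-2 had no read, and the sum was 0.0880% and 0.0786%. How many reads of these neural and muscle genes fitted several places is not known either. Their zeros and sums therefore cannot be read as absence of the microRNAs.

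Nearly all counts of the family in the embryonic liver came from 3 genes. Together the 6 genes held 198124 counts in replicate 1, 5.92% of assigned counts (95% exact Clopper-Pearson interval 5.90 to 5.95), and 50208 in replicate 2, 3.17% (3.14 to 3.20). The mean share was 4.55% ± 1.95 (SD, n = 2). Mir30e, Mir30a and Mir30d held 5.89% and 3.13% of assigned counts, while Mir30b, Mir30c-1 and Mir30c-2 together held 0.0308% and 0.0338%. No molecular identifiers are described, so all intervals here cover counting error only.

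Mir30e, the leading member, gave 124752 and 31351 counts in replicates 1 and 2, or 37299 and 19786 CPM. Its mean of 28542 ± 12383 CPM (SD, n = 2) placed it at rank 5 of all counted genes. It was the fourth most abundant gene in replicate 1 (rank 4) and stood at rank 13 in replicate 2. Mir30a gave 48229 and 12055 counts, or 14420 and 7608 CPM, with a mean of 11014 ± 4817 CPM (SD, n = 2) and rank 23. Mir30d gave 24113 and 6266 counts, or 7209 and 3955 CPM, with a mean of 5582 ± 2302 CPM (SD, n = 2) and rank 47. For all 3 genes the value of replicate 1 was the higher one.

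The other member of each pair was far lower. Mir30b gave 574 and 250 counts, or 172 and 158 CPM (mean 165 ± 9.78, SD, n = 2; rank 198). Mir30c-1 gave 275 and 194 counts, or 82.2 and 122 CPM (102 ± 28.4, SD, n = 2; rank 219), and was the member with the clearly higher value in replicate 2. Mir30c-2 gave 181 and 92 counts, or 54.1 and 58.1 CPM (56.1 ± 2.79, SD, n = 2; rank 239). Even the lowest of these values lay far above the level that a count of 0 allows, 3 counts, which equal 0.897 CPM in the first library and 1.89 CPM in the second.

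The order of the levels was Mir30e, Mir30a, Mir30d, Mir30b, Mir30c-1 and Mir30c-2 in both libraries, and it was the same per 100 bases of the annotated gene. No neighbours in this order had overlapping ranges over the libraries. The gap was narrow between Mir30a and Mir30d, whose nearest values were 7608 and 7209 CPM, and wide between Mir30d and Mir30b, at 3955 and 172 CPM. With 2 values on each side, an exact unpaired permutation test could not give a p below 0.333. Such a test would also ignore that both genes are measured in the same libraries.

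**Figure D1:**
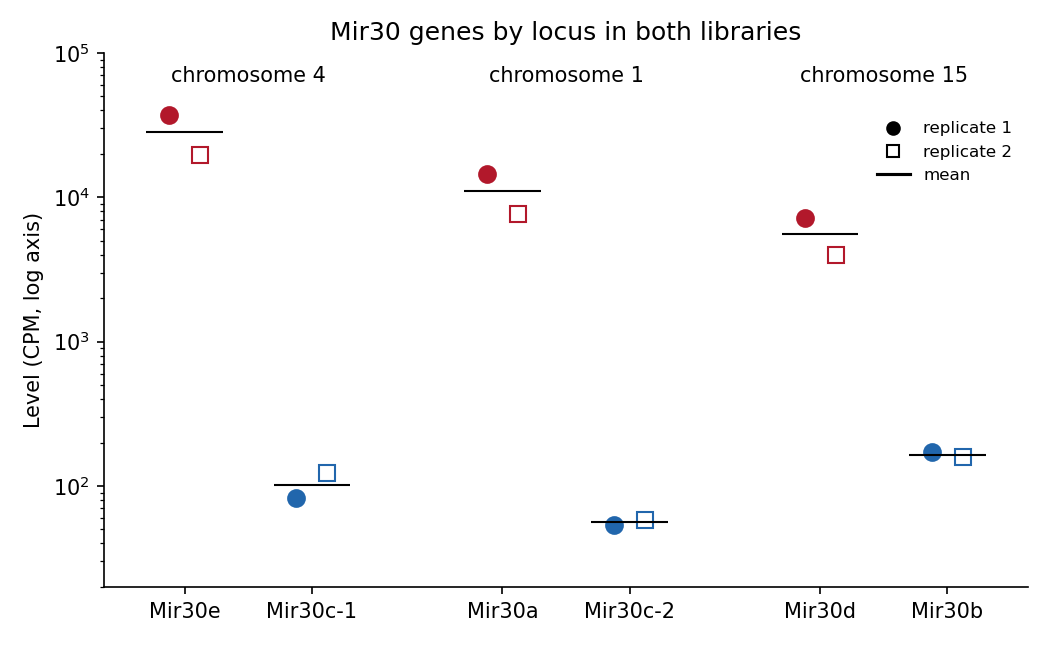
Level of each Mir30 gene in CPM (log axis), grouped by locus; filled circles are replicate 1, open squares replicate 2 and the line their mean. Each locus holds 1 gene at 3955 CPM or more and 1 at 172 CPM or less in both libraries.

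Comparing the genes of a pair within a library removes library size. On chromosome 4, Mir30e had 454 times the count of Mir30c-1 in replicate 1 (95% exact interval 403 to 513) and 162 times in replicate 2 (140 to 187), a mean log2 ratio of 8.08 ± 1.05 (SD, n = 2). On chromosome 1, Mir30a had 267 times the count of Mir30c-2 (230 to 310) and 131 times (107 to 163), a mean log2 ratio of 7.54 ± 0.73. On chromosome 15, Mir30d had 42.0 times the count of Mir30b (38.7 to 45.7) and 25.1 times (22.1 to 28.6), a mean of 5.02 ± 0.53. The intervals of the libraries did not overlap at any of the 3 loci, so the size of the imbalance differed between the libraries by more than counting error, while its direction was the same.

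The leading genes of the loci kept close ratios to each other. Mir30e had 2.59 times the count of Mir30a in replicate 1 (2.56 to 2.61) and 2.60 times in replicate 2 (2.55 to 2.66). Mir30a had 2.00 times that of Mir30d (1.97 to 2.03) and 1.92 times (1.87 to 1.98). Between the lower genes the ratios were less alike, with Mir30b at 2.09 times Mir30c-1 in replicate 1 (1.80 to 2.42) and 1.29 times in replicate 2 (1.06 to 1.56). Mir30c-1 had 1.52 times the count of Mir30c-2 (1.25 to 1.84) and 2.11 times (1.64 to 2.73), and these intervals overlapped.

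As shares of the family's own counts, Mir30e made up 63.0% and 62.4%, Mir30a 24.3% and 24.0%, and Mir30d 12.2% and 12.5%. The chromosome 4 locus held 63.1% and 62.8% of the family, the chromosome 1 locus 24.4% and 24.2%, and the chromosome 15 locus 12.5% and 13.0%. The lower genes together made up 0.520% (0.489 to 0.552) and 1.07% (0.980 to 1.16), the one portion whose share differed widely between the libraries. The proportions of the 3 leading genes were thus nearly the same although the share of the library held by the family was not.

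**Figure D2:**
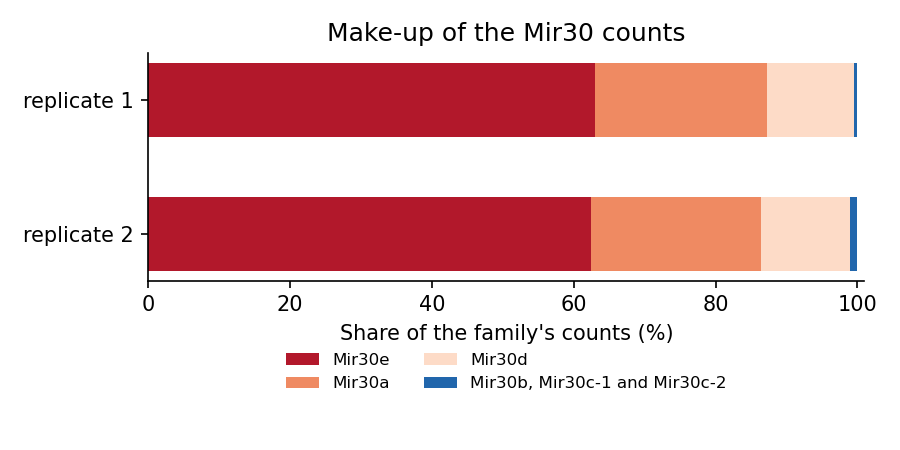
Share of the family's counts (%) held by each leading gene and by the 3 lower genes together, in each library. The segments of the leading genes are alike, with Mir30e at 63.0% and 62.4%, while the thin segment of the lower genes differs, at 0.520% and 1.07%.

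To place the pairs, all counted microRNA genes that neighbour each other on the same strand were compared in the same way. Within 10 kb, and with a mean count of at least 100 in either gene, 129 other pairs had a median difference of 3.85 on the log2 scale, about 14.4-fold. The chromosome 1 pair lies farther apart than that, so pairs up to 50 kb were used as well, a choice made after the values were seen. Among 141 other pairs within 50 kb, 33 differed as much as Mir30e and Mir30c-1 or more, 34 as much as Mir30a and Mir30c-2, and 58 as much as Mir30d and Mir30b. Against pairs in which both genes had a mean count of at least 100, the set in which the Mir30 pairs fall, the median of 84 other pairs was 2.22, and 2, 2 and 14 of them differed as much. A gene with neighbours on both sides could enter more than 1 pair, and many pairs lay close together on chromosome 12. The pairs are therefore not separate loci. Unequal neighbours were thus common, and the chromosome 4 and chromosome 1 pairs were near the upper end only among pairs with both genes well counted.

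**Figure D3:**
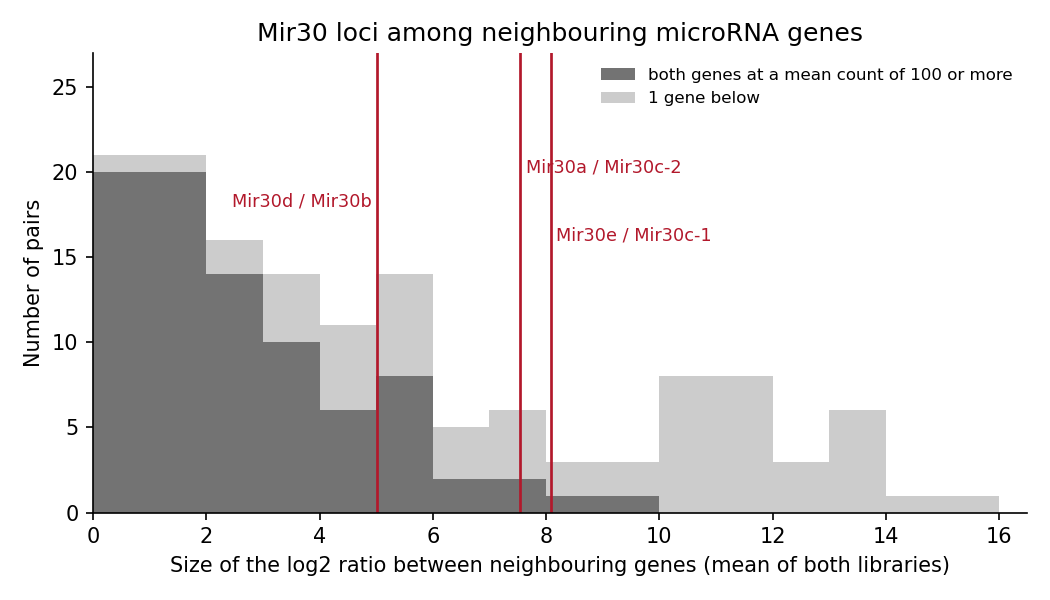
Number of neighbouring pairs of counted microRNA genes (at most 50 kb apart, same strand, Mir30 pairs left out) by the size of the log2 ratio between their genes, stacked by whether both genes reach a mean count of 100. The vertical lines mark the Mir30 pairs at 5.02, 7.54 and 8.08, past which lie 14, 2 and 2 of the 84 pairs with both genes at that count.

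Between the libraries, the 3 leading genes differed to nearly the same degree and the lower genes did not follow them. The ratio of replicate 1 to replicate 2 was scaled by TMM (trimmed mean of M values) effective library sizes, which correct for a few genes taking a larger share of a library. It compares these libraries, not conditions. Mir30a was 1.82-fold higher in replicate 1 (log2 0.86, 95% exact counting interval 0.83 to 0.89), Mir30e 1.81-fold (0.85, 0.83 to 0.87) and Mir30d 1.75-fold (0.80, 0.76 to 0.84). Mir30b lay at a log2 ratio of 0.06 (-0.16 to 0.28) and Mir30c-2 at -0.17 (-0.53 to 0.21), both intervals including 0. Mir30c-1 was 1.56-fold higher in replicate 2, at -0.64 (-0.91 to -0.36).

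All 6 genes had a mean count of at least 100 and were compared with the 257 genes that did. None of the 6 was 2-fold apart between the libraries, against 14 of the 257 (5.45%). At a mark of 1.5-fold, 3 of the 6 were higher in replicate 1, against 37 of 257 (14.4%), and 1 of the 6 was higher in replicate 2, against 33 of 257 (12.8%). The call in replicate 2, Mir30c-1, rested on this scaling. Its log2 ratio missed the 1.5-fold mark under each of the other scalings run, at -0.56 with TMM over all counted genes and at -0.58 with total assigned counts and with DESeq2 size factors. The values of these libraries were known when the family was chosen, and nothing is read from the counts. The median log2 ratio was 0.43 for the 6 genes and -0.03 for all 257, of which 13 others were as high as Mir30a or higher, 14 as high as Mir30e and 17 as high as Mir30d.

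**Figure D4:**
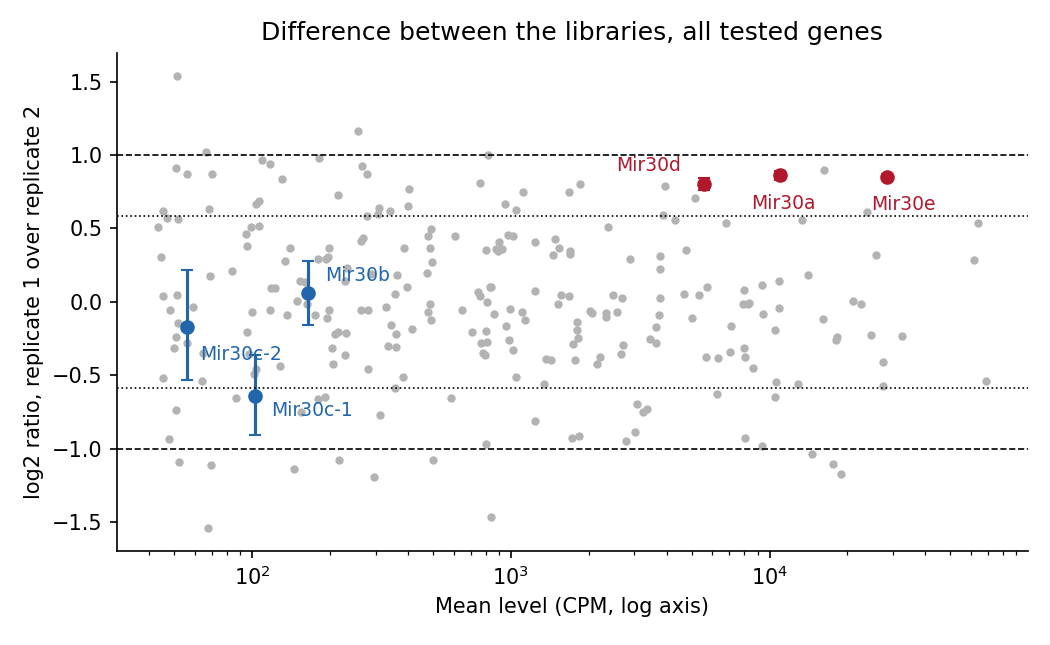
log2 ratio of replicate 1 over replicate 2 against mean level (CPM, log axis) for the 257 genes compared; Mir30 genes are coloured with their 95% counting interval, and dashed and dotted lines mark 2-fold and 1.5-fold. Mir30e, Mir30a and Mir30d sit between 0.80 and 0.86, while Mir30b, Mir30c-2 and Mir30c-1 sit at 0.06, -0.17 and -0.64.

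Within each locus, the paired genes differed in this library ratio by 1.49 on chromosome 4, 1.03 on chromosome 1 and 0.75 on chromosome 15 (log2). Among the 84 other pairs with both genes well counted, 4, 10 and 31 had a gap as large, and their median gap was 0.58. Of the 50 genes with a mean of at least 5000 CPM, a mark chosen after the values were seen, 6 were at least 1.5-fold higher in replicate 1. They were Mir541 (1.86-fold), the 3 leading Mir30 genes, Mir125a (1.63-fold) and Mir20a (1.53-fold). Others of the 50 were higher in replicate 2, with log2 ratios from -1.17 (Mir411) to 0.90 (Mir541) and a median of -0.11.

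Markers of cell types also differed between the libraries. The endothelial marker Mir126a held 5.74% of assigned counts in replicate 1 and 8.005% in replicate 2, the smooth muscle and mesenchyme list (5 of 5 genes counted) 2.20% and 3.29%, and the erythroid list (2 of 4 counted) 0.795% and 1.10%. The hepatocyte list (5 of 5) held 3.31% and 3.69%, and the leukocyte list (4 of 5) 0.534% and 0.531%. Single genes carried these sums. Without Mir143 (11472 and 23596 CPM), the smooth muscle and mesenchyme list ran the other way, 1.05% and 0.935%, and without Mir122 the hepatocyte list held 0.237% and 0.238%. Without Mir451a the erythroid list held 0.0459% and 0.121%, and without Mir223 the leukocyte list held 0.0408% and 0.0221%. The erythroid list named Mir486a and Mir486b, so the counted gene Mir486, at 372 and 343 CPM, lay outside its sum. The leukocyte gene not counted was Mir142. The leukocyte sum also leaves out 140377 and 62714 reads on the strand opposite Mir142b, which had 2 and 3 on its own strand. The part of cell make-up, depth or pool in the library difference was not tested. In whole tissue, fewer cells of a type and less RNA per cell cannot be told apart.

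Outside the family, a search of the mature arms of the table for the same 5p seed found 1 more counted gene, Mir384 (ENSMUSG00000065499.1, chrX:105344282-105344369).
miR-384-5p (Mir384): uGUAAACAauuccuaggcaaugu
It shares its first 8 bases with miR-30a-5p and differs from it at 10 of the 22 positions compared. Mir384 gave 108 and 33 counts, or 32.3 and 20.8 CPM (26.6 ± 8.11, SD, n = 2; rank 279), below every Mir30 gene in both libraries. Mir30f, annotated on the strand opposite Mir30e, was not a counted gene.

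Other families spread over several loci were set beside the Mir30 family, and their members also differed widely in level when all counted members were taken. In the let-7 family, a regulator of developmental timing, 9 genes with a Mirlet7 symbol were counted. Mirlet7g led at 21060 ± 696 CPM (SD, n = 2). Mir98 (1604 and 1874 CPM), a relative under another symbol, was left out of the family values. In the Mir26 family of 3 genes, Mir26b led at 22628 ± 514 CPM, while Mir26a-2 and Mir26a-1 stood at 45.2 and 16.7 CPM. The Mir29 family of 4 genes was less abundant, led by Mir29a at 781 ± 110 CPM. Its other members, Mir29c, Mir29b-1 and Mir29b-2, stood at 154, 16.8 and 3.32 CPM. Over all counted members, the highest mean level was 509 times the lowest in the Mir30 family and 235 times in Mir29. It was 3354 times in let-7, where Mirlet7c-2 was lowest at 6.28 CPM, and 1354 times in Mir26. Among members with a mean count of at least 100, the ratio was 509 in the Mir30 family (6 genes), 486 in let-7 (8 genes), 500.1 in Mir26 (2 genes) and 5.07 in Mir29 (2 genes).

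The families differed in how far their share moved between the libraries. The Mirlet7 genes held 3.41% and 3.30% of assigned counts, the Mir26 genes 2.31% and 2.23%, and the Mir29 genes 0.0846% and 0.106%. The Mir30 genes held 5.92% and 3.17%. The log2 ratios of the Mirlet7 genes ran from -0.10 to 0.84, and 3 of 8 compared were at least 1.5-fold higher in replicate 1. These were Mirlet7a-2, Mirlet7a-1 and Mirlet7b at 103 to 130 CPM, and not the leading members. In the Mir30 family it was the leading members. The difference between families was not tested.

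Mature arms shared with another gene were then set beside the levels, since Mir30c-1 and Mir30c-2 each share 1 of their 2 arms. Of the counted genes, 916 had a mature sequence in the table and 583 had 2 arms there. Among genes with no arm shared, 223 of 514 were detected (a count of at least 10 in each library), at a median of 473 CPM, and 86 of the detected genes (38.6%) reached 1000 CPM. Among genes with some arms shared, 36 of 53 were detected at a median of 69.6 CPM, and 4 (11.1%) reached 1000 CPM. Mir30a and Mir30e belong to the first class and both Mir30c genes to the second, at 102 and 56.1 CPM. Outside these classes, 16 genes had every arm shared (2 detected, median 52.15 CPM). A further 333 genes had fewer than 2 arms in the table (50 detected, median 132 CPM). Of these, 12 reached 1000 CPM, with Mir126a the highest. Among genes with 2 arms in the table, Mir92-1, with 8276 CPM, was the most abundant with a shared arm. Whether and how many reads of miR-30c-5p fell in the class mapping to several places was not measured, so the low counts of Mir30c-1 and Mir30c-2 cannot be read as a low level of miR-30c.

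**Figure D5:**
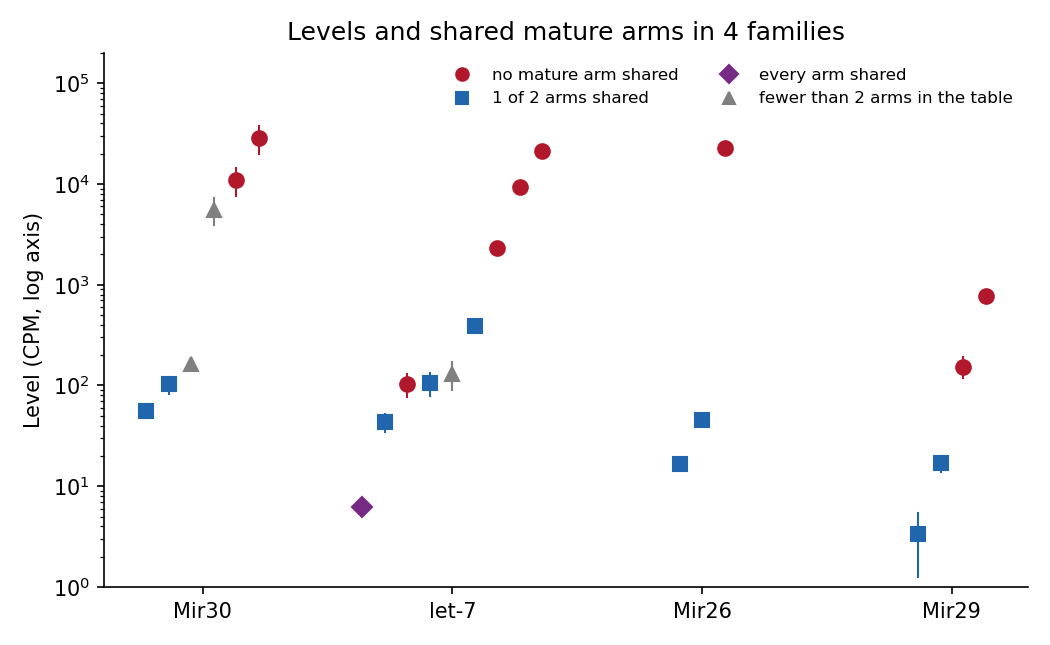
Mean level in CPM (log axis) of each gene of the Mir30, let-7, Mir26 and Mir29 families, with a line joining the libraries, and the symbol showing how many of its mature arms occur at another gene of the table. The Mir30, let-7 and Mir26 leaders have no shared arm and lie at 28542, 21060 and 22628 CPM. Mir30c-1 and Mir30c-2, with 1 shared arm, lie at 102 and 56.1 CPM. The classes overlap, with Mirlet7b and Mir29c (no shared arm) at 103 and 154 CPM and Mirlet7f-2 (1 shared arm) at 387 CPM.

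For each member, the gene with the nearest levels was the one with the smallest distance in log2(CPM + 1) over the 2 libraries, which describes only 2 points. Mir20a lay nearest Mir30e (distance 0.37), Mir93 nearest Mir30a (0.50) and Mir125a nearest Mir30d (0.16). Mir20a and Mir93 belong to the related clusters of the miR-17 family. Mir499 lay nearest Mir30b (0.05), Mir345 nearest Mir30c-1 (0.10) and Mir760 nearest Mir30c-2 (0.08). The distances say only that these genes have like levels in both libraries.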

How the data were processed

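For each library the deposited values were unnormalised counts per microRNA gene, on either strand, on the strand of the gene and on the opposite strand. The assembly (mm10) and annotation (GENCODE M4) are per the deposited description of the files, and the layout was read from the values. The aligner and counter are not given in the sources used here. Summary classes that name no gene (73.8% and 71.0% of reads) stayed out of library sizes. Because both libraries form 1 group, no test between conditions was made.

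CPM was computed here from same-strand counts. TMM sizes came from edgeR 4.0.16 in R 4.3.3, from genes whose summed count reached 10. That filter was set after values from all genes had been seen. DESeq2 1.42.0 gave alternative size factors. Log2 ratios used 0.5 added to each count, with 95% exact binomial intervals that take library sizes as known. The text names the 6 members, same-seed genes, the nearest gene to each member, family leaders, Mir122 and the most abundant gene; others were named after their values were seen. Genes were named from M21 (1894 of 1973 matched). Python 3.11.15 with numpy 2.4.6, scipy 1.17.1 and pandas 2.3.3 was used, and the ratio procedure was tested on simulated data. Members, lists and marks were chosen with earlier results of these data known.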

Additional observations from a re-analysis of the deposited data

How the results depend on the processing

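The family's mean share of 4.55% was 4.13% with reads on either strand and 4.87% with Mir126a left out of the total, and it ran from 3.17% to 5.92% when a library was left out. The log2 ratios within the loci kept their direction in each setting run, from 7.33 to 8.82 for Mir30e over Mir30c-1, 7.03 to 8.05 for Mir30a over Mir30c-2 and 4.64 to 5.39 for Mir30d over Mir30b without a library. The number of Mir30 genes 2-fold apart between the libraries was 0 under total counts, DESeq2 size factors, TMM over all counted genes and no filter, and 4 at 1.5-fold. The 4 include Mir30c-1, which missed 1.5-fold under the other scalings. Over all genes the number was 14 of 257, 16 with DESeq2 size factors and 17 with total counts or with TMM over all counted genes. It was 226 of 724 with no filter beyond 1 count, and 70 of 257 at 1.5-fold. The library ratios of Mir30a, Mir30e and Mir30d reached at most 0.93, 0.93 and 0.88 (log2) under other scalings, and that of Mir30c-1 lay between -0.65 and -0.56 over the alternatives. The median difference of neighbouring pairs, 3.85, was 3.91 within 1 kb, 3.90 within 50 kb, 2.20 with both genes at the minimum and 2.22 with both and 50 kb, since fewer pairs with a barely counted gene remain, and 3.65 to 3.71 without a library. No pairing of samples between groups was possible because both libraries belong to 1 group. The lower members rest on 92 to 574 counts per library, which limits their ratios, and 2 libraries limit every spread given.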
